A study of Homo sapiens with 6 samples.

Results

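Cadherins and protocadherins were taken as every gene in the RNA tables whose name starts with PCDH, or with CDH, DSC, DSG, FAT or CELSR followed by a digit. The rule used names only and no measured value. It gave 84 of the 10661 genes with a row in either table, 60 of 8798 in ME-180 and 65 of 9490 in SiHa, and 41 genes had a row in both. Another 19 coding genes that RefSeq lists under these names had no row in the tables used here, among them CDH1, which encodes E-cadherin, and CELSR1, FAT1, FAT4, PCDH10 and PCDH18. A missing row is not a count of zero.

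Human cervical cancer lines gave the 6 samples of the series, with 1 library per group, all at passages 13 to 15. The 4 RNA libraries were an ME-180 control labelled plko, an ME-180 knockdown library labelled shp63, a SiHa library with a vector and a SiHa library with p63 overexpression. ME-180 and SiHa are established cervical carcinoma lines, and the p63 isoform that was overexpressed is not named in the labels. A p63 immunoprecipitation and its input from ME-180 were not used here. Without replicates, each difference below is one between 2 libraries, no test of the conditions was possible, and each 95% interval covers counting error only.

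Cadherins are calcium-dependent adhesion proteins of the cell surface. Classical cadherins join neighbouring cells through matching ectodomains and hold on to actin through catenins, and desmosomal cadherins (desmogleins and desmocollins) hold on to keratin filaments through plakoglobin, plakophilins and desmoplakin. Clustered protocadherins lie in alpha, beta and gamma arrays, where each variable exon has its own promoter and a cell uses only some of them. Alpha and gamma transcripts share constant exons and beta genes do not, so rows of the alpha and gamma genes can share reads. FAT and CELSR proteins are very large cadherins, known for growth control and planar polarity. p63, encoded by TP63, is the transcription factor that keeps basal cells of stratified epithelia in their state, where P-cadherin (CDH3) and desmosomal cadherins are abundant.

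Table totals ranged from 10046579 to 14207637 counts. TP63 row NM_001114980.1 went from 5619 to 6 counts in ME-180 and from 7 to 179 in SiHa. The library labelled knockdown stood apart from the ME-180 control. Across the 11471 transcripts found in both tables (transcripts are not independent replicates), its log2(CPM + 1) correlated with the ME-180 control at a Pearson's r of 0.741 and with SiHa vector at 0.851, while the SiHa pair reached 0.991. CPM are counts scaled to 1000000 per table. Whether the 2 libraries labelled ME-180 come from the same line was not tested. A difference between lines and an effect of the knockdown cannot be told apart in this pair. The 5 of 7 squamous markers with a row summed to 71839 CPM in control ME-180 cells against 35.9 in the library labelled knockdown, and to 4158 and 8931 in SiHa vector and overexpression. The 5 of 8 general epithelial markers in the ME-180 table summed to 3200 and 132 CPM, with ESRP1 and SPINT1 at 0 in the library labelled knockdown. Summed levels in the same pair were 128 and 71.1 CPM for 4 of 7 fibroblast markers (PDGFRB at 0 in the control), 37.7 and 57.4 for 5 of 9 neural markers (ELAVL3 at 0 in the control), 15.2 and 1.89 for 5 of 6 endothelial markers (KDR at 0 in the control, CDH5, ERG and TEK at 0 in the other) and 51.8 and 7.56 for 4 of 5 immune markers (CD3E at 0 in the library labelled knockdown). The part that the loss of epithelial markers has in the values below was not tested, and in bulk RNA fewer cells of a type and less RNA per cell cannot be told apart.

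In ME-180, 8 of the 9 clustered protocadherins that reached 1 CPM were lower in the library labelled knockdown, as were CDH13, CDH16, DSG1 and FAT3, while CDH23, PCDH9, PCDH17, PCDH19 and 3 classical or type II cadherins were higher. A gene was called at a ratio of at least 2-fold on CPM + 1 with at least 1 CPM in 1 of the 2 libraries, on its row with the highest CPM. Of the 60 genes with a row, 21 reached 1 CPM, of which 7 were called higher and 12 lower. Of all 6783 genes at that level, 28.2% were called higher and 20.6% lower, so calls in this pair were common. Scaling by trimmed means changed the split over all genes from 1914 higher and 1400 lower to 1503 and 1653, and that of the members to 7 and 13. By library totals, the 21 genes had a median log2 ratio of -1.06, beside 0.28 for all genes. Of the 21, 17 reached 1 CPM in 1 library only and so had to differ, which is why neither the count nor the median supports a change of the family. Without the clustered protocadherins the count lower was 4 and the median turned to 1.25. With a pseudocount of 5 CPM, 13 of the 19 calls were lost, and those left were CDH23, PCDH9 and PCDH17 (higher) and CDH13, FAT3 and PCDHB9 (lower).

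**Figure D1:**
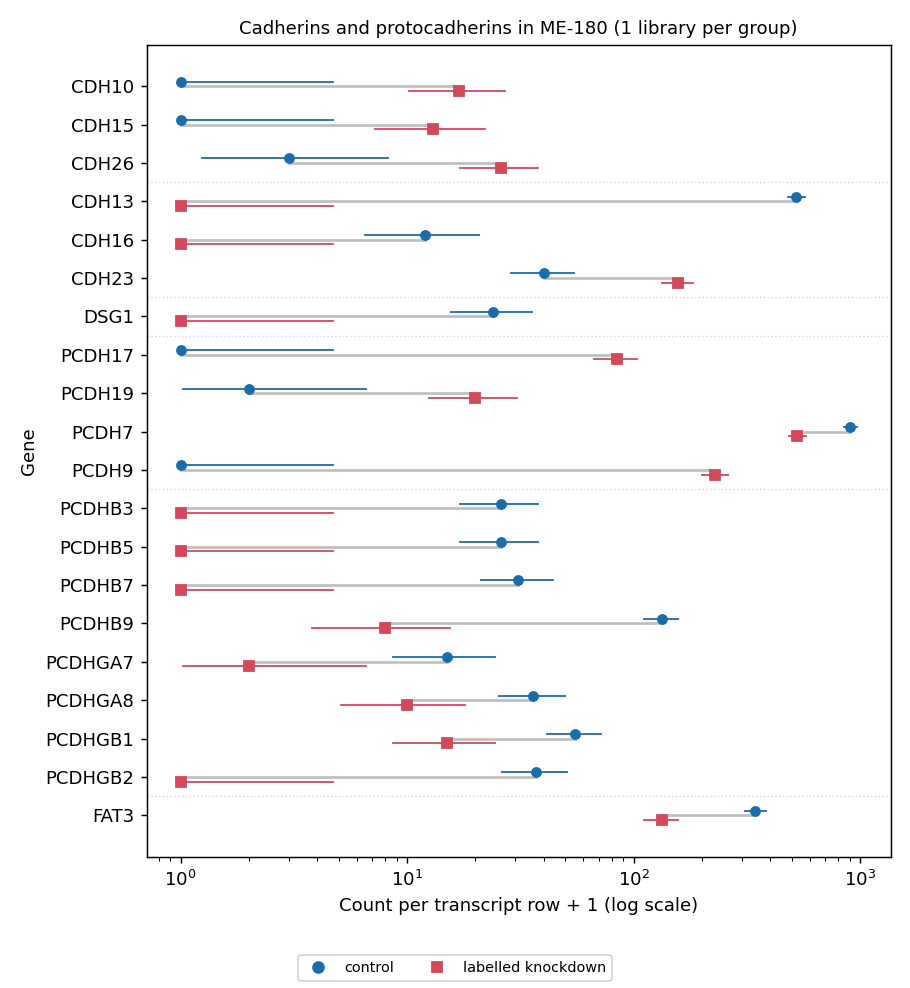
Counts in the 2 ME-180 libraries, 1 per group, for each cadherin or protocadherin described by name; the x axis is the count of the gene's highest row plus 1 on a log scale, circles are the control, squares the library labelled knockdown, and horizontal bars exact 95% Poisson intervals. CDH13, with 522 and 0 counts, and PCDH9, with 0 and 227, have their circles and squares in opposite order. All 4 beta protocadherins shown lie further right in the control.

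Clustered protocadherins had mostly lower counts in the ME-180 library labelled knockdown. The table had rows for 37 of these genes, 9 of them at 1 CPM or more, with 8 called lower and 0 higher. Of all genes, 20.6% were called lower and 28.2% higher. Of the 9, 8 reached that level in 1 library only and so had to differ, so the count does not support a change of these genes. PCDHB9 had 132 control counts against 7 in the library labelled knockdown, lower by 17.5-fold (8.28 to 44.5). PCDHB7 had 30 counts and 0, or 9.30-fold lower when 3 counts, the floor used per library, stand in for the 0. A fold against this floor is not a minimum, and the lower 95% limit of the fold, from the counts themselves, was 7.11. PCDHB3 and PCDHB5 had 25 counts each and 0, or 7.75-fold lower against that floor (lower 95% limit 5.85). These 4 beta genes were thus low but clearly counted in the control, and only PCDHB9 had any count in the other library. The fifth beta row, PCDHB6, had 5 counts and 0 and stayed under 1 CPM. Beta genes are close copies of each other, so some reads could fit several of them.

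The beta promoters are shown because those 4 genes, counted in the control and at or near 0 in the other library, carry the same short run of letters upstream of their starts. The lines give the 250 bases before the RefSeq gene start, 5′ to 3′ on the plus strand of GRCh38.p14, at chr5:141100223-141100472, chr5:141134956-141135205, chr5:141172394-141172643 and chr5:141186911-141187160. Capitals mark the longest run that all 4 promoters share.
PCDHB3: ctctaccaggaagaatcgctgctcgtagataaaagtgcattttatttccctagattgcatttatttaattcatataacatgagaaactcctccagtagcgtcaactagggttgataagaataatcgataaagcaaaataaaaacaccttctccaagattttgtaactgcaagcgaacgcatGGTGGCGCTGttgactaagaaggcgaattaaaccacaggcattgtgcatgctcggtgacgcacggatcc
PCDHB5: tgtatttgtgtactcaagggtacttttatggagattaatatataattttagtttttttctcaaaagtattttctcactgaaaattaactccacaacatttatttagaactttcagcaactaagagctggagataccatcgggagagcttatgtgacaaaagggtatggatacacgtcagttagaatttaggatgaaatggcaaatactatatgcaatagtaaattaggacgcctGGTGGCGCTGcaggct
PCDHB7: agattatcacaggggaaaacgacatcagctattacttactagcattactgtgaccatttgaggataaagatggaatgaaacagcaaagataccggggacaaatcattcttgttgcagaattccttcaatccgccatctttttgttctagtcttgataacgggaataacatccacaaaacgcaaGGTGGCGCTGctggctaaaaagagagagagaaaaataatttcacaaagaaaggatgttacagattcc
PCDHB9: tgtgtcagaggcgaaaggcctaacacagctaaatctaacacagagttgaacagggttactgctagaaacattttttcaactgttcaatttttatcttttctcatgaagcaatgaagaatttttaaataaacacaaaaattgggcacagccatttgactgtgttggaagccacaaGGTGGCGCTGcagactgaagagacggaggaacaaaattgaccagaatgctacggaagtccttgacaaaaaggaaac
The run, ggtggcgctg, has 10 bases and starts 69, 16, 67 and 76 bases before the gene start in the order shown. On either strand it was in 12 of 14 beta promoters of the RefSeq table, and in 8 of the 10 that were not used to find it. It was in 97 of 34796 promoters of 300 bases (0.279%), in 0 of 13 alpha and 0 of 25 gamma promoters, and in 0 of 37 promoters of the other members. A match is a description of these letters and not a shown binding site, and a tie between the run and the counts was not tested.

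Gamma protocadherins had mostly lower counts in the library labelled knockdown as well. PCDHGB1 row NM_018922.2 had 54 control counts against 14 in the library labelled knockdown, lower by 3.59-fold (1.97 to 6.99). PCDHGA8 row NM_032088.1 had 35 and 9 counts, 3.62-fold lower (1.70 to 8.55). PCDHGB2 had 36 and 0 counts, or 11.2-fold lower against the floor of 3 counts (lower 95% limit 8.62). PCDHGA7 had 14 and 1 counts, 13.0-fold lower (1.98 to 550). Among gamma genes at 1 CPM or more, PCDHGC4, one of the gamma C genes at the end of the array, was the only one with a ratio above 1, with 3 control counts against 15 in the library labelled knockdown. Its ratio was 5.38 (1.52 to 28.98) and its log2 ratio 0.96, just short of the 2-fold rule. Over all 20 gamma rows, 14 were lower and 6 higher, with 208 counts in the control and 62 in the other library, and rows can share reads. The alpha cluster was near the limit of detection, with 65 counts over 21 rows of 14 genes in the control, 4 in the library labelled knockdown and at most 8 counts in any row. Of these 21 alpha rows 20 had a control count, and 3 had one in the library labelled knockdown.

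The gamma promoters are shown beside the beta ones because they carry a shorter version of the shared letters. Over 52 promoters of clustered protocadherins, cgctgt was the most frequent run of 6 bases, and it was found after these promoters were read. The lines give 86 bases around it (capitals) at chr5:141350001-141350086, chr5:141359897-141359982 and chr5:141392544-141392629, plus strand of GRCh38.p14, for 3 gamma genes lower in the library labelled knockdown.
PCDHGB1: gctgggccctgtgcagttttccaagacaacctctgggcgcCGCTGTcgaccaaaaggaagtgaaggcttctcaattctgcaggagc
PCDHGB2: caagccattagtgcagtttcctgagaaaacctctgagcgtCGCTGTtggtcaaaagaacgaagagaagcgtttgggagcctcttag
PCDHGA8: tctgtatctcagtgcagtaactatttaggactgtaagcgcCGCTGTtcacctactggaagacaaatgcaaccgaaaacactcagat
On either strand these 6 bases were in 21 of 25 gamma, 7 of 13 alpha and 1 of 14 beta promoters, and in 11.2% of all promoters of the same length. Their first 5 letters are also the end of the beta run. RefSeq promoters were at hand for 67 of the 84 genes of the family.

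In SiHa the clustered protocadherins that reached 1 CPM had ratios close to 1. The tables hold different rows of these genes, so use of different genes in the 2 lines is not shown. PCDHB3, PCDHB7 and PCDHB9 have no SiHa row, and PCDHB11, PCDHB15 and PCDHGC3 have no ME-180 row. Of 35 with a row, 11 reached 1 CPM, 0 were called beside 1.32% of all SiHa genes at that level, and their log2 ratios lay between -0.21 and 0.36. The beta genes were PCDHB11 with 24 counts in the vector library and 21 in the overexpression library, PCDHB15 with 15 and 19, and 6 others with at most 12. PCDHB5, with 25 counts in the ME-180 control, had 1 and 2 counts in SiHa. PCDHGB2, with 36 in the ME-180 control, had 0 and 7. PCDHGC3, the gamma gene with the most counts, had 150 counts in the vector library and 142 in the overexpression library, a ratio of 0.982 (0.775 to 1.24).

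Many SiHa gamma rows had counts close to each other. The 9 other gamma rows with at least 29 counts in both libraries, a limit chosen after the values were seen, lay between 32 and 45 counts in the vector library and between 29 and 47 in the overexpression library. They belong to 8 genes, among them PCDHGB4 (45 and 36), PCDHGB7 (44 and 42) and PCDHGA9 (33 and 41). Each of the 17 remaining gamma rows had at most 5 and at most 7 counts. Rows of 1 gene could fall in both ranges, as for PCDHGA7, where NM_018920.2 had 37 and 29 counts and NM_032087.1, the row counted in ME-180, had 0 and 1. Rows so close in count cannot be taken as separate measurements of each gamma gene.

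**Figure D2:**
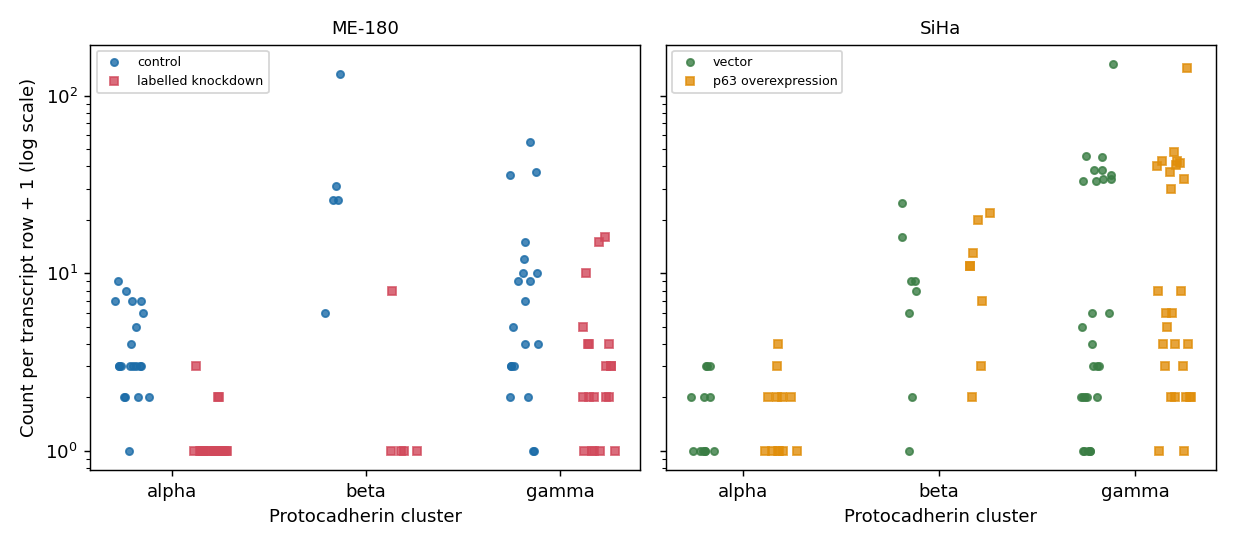
Count plus 1 (log scale) of every transcript row of the alpha, beta and gamma protocadherin clusters, with ME-180 on the left and SiHa on the right; each point is 1 row in 1 library, circles are control or vector, squares labelled knockdown or overexpression, and the sideways spread within a cluster has no meaning. Beta rows reach 132 counts in the ME-180 control and 7 in the library labelled knockdown. In SiHa, 9 gamma rows form a band between 29 and 47 counts under PCDHGC3, and the 17 other gamma rows have at most 7 counts.

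Non-clustered protocadherins are single genes with roles in cell sorting and neural wiring. Of 7 with a row in ME-180, 4 reached 1 CPM, of which 3 were called higher and 0 lower, beside 28.2% and 20.6% of all genes. Those 3 reached that level in the library labelled knockdown only and so had to differ. PCDH9 had 0 control counts against 227 in the library labelled knockdown. That is 81.4-fold higher against the floor of 3 counts (lower 95% limit 65.6). PCDH17 had 0 and 83 counts, or 29.8-fold higher against that floor (lower 95% limit 23.7). PCDH19 row NM_020766.2 had 1 and 19 counts, a ratio of 20.4 (3.25 to 849), and its other rows had 2 and 16, and 0 and 10. These genes were at or near 0 in the control and counted in the library labelled knockdown. Under 1 CPM, PCDH15 had 10 and 0 counts, PCDH12 had 8 and 4, and PCDH8 had 3 and 0, each lower in the library labelled knockdown.

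PCDH7, the protocadherin with the most counts, was present in all 4 libraries. Row NM_001173523.1 had 903 and 527 counts in ME-180, 1.59-fold lower (1.43 to 1.78) and short of the 2-fold rule. In SiHa the same row had 182 vector counts against 297 with overexpression, a log2 ratio of 0.72. A further SiHa row, NM_002589.2, had 157 and 344 counts, a ratio of 2.27 (1.88 to 2.76), and passed the rule with a log2 ratio of 1.12. Summed over both rows the log2 ratio was 0.94, under the rule. PCDH17 had 26 vector counts against 7 with overexpression, 3.58-fold lower (1.51 to 9.77), with a log2 ratio of -0.91 that the pseudocount keeps short of the rule. PCDH1, a protocadherin of epithelia, had 72 and 55 counts, a ratio of 0.793 (0.548 to 1.14).

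CDH13 (T-cadherin, which lacks a cytoplasmic tail and is held to the membrane by a lipid anchor) had the lowest ratio of the family in ME-180. Row NM_001257.4 had 522 control counts against 0 in the library labelled knockdown. Against the floor that stands in for a 0, this is 162-fold lower (lower 95% limit 131). All 6 of its rows were at 0 in the library labelled knockdown, against 41 to 522 counts in the control. In SiHa, row NM_001220488.1 had 346 vector counts against 417 with overexpression, a ratio of 1.25 (1.08 to 1.45) that did not reach 2-fold. All 6 SiHa rows had a higher CPM with overexpression, and they overlap and are not independent.

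CDH23, a cadherin of hair cell tip links, had rows with ratios on both sides of 1 in ME-180. In ME-180, rows NM_001171930.1, NM_001171931.1 and NM_001171932.1 had 36, 39 and 6 control counts against 133, 156 and 33 in the library labelled knockdown. Their ratios were 3.97 (2.73 to 5.91), 4.30 (3.01 to 6.28) and 5.91 (2.45 to 17.3). Rows NM_001171933.1, NM_001171934.1 and NM_001171935.1 had 27, 36 and 19 counts and then 5, 11 and 2, ratios of 0.199 (0.0599 to 0.525), 0.329 (0.151 to 0.660) and 0.113 (0.0128 to 0.469). The seventh row, NM_001171936.1, had 6 and 4 counts, a ratio of 0.717 (0.149 to 3.02). Summed over all 7 rows, the log2 ratio of CDH23 was 1.08, against 1.84 for its highest row, and both passed the 2-fold rule. RefSeq places 2 other coding genes, C10orf105 and VSIR, within the span of CDH23 on chromosome 10, and without a stated strand setting reads of overlapping genes cannot be told apart. In SiHa the highest row, NM_001171931.1, had 32 and 12 counts, a log2 ratio of -0.79.

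**Figure D3:**
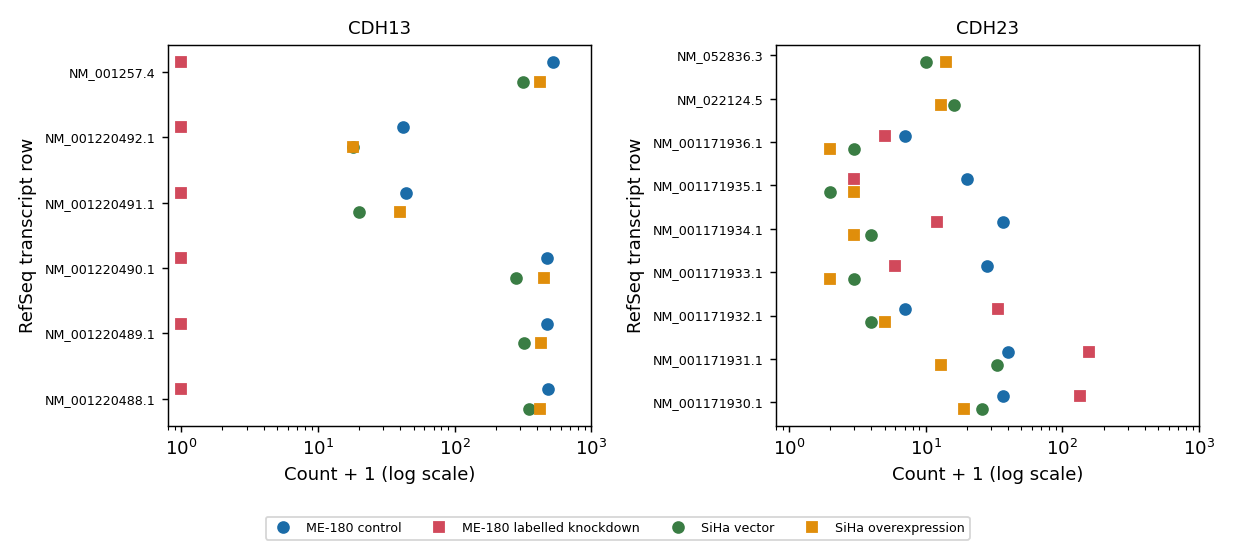
Count plus 1 (log scale) of each RefSeq transcript row of CDH13 (left) and CDH23 (right) in the 4 libraries, 1 library per group, with each row at its own height and no point where a table had no row. All CDH13 rows are at 0 in the library labelled knockdown and at 17 to 451 counts in SiHa, while CDH23 rows separate into some with more and some with fewer counts in that library than in the ME-180 control.

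Among classical and type II cadherins, which build adherens junctions, the ME-180 calls rested on few reads. CDH26, a cadherin of inflamed epithelia, had 2 control counts against 25 in the library labelled knockdown, for a ratio of 13.4 (3.35 to 117). CDH10, a type II cadherin of the nervous system, had 0 and 16 counts, or 5.74-fold higher against the floor of 3 counts (lower 95% limit 4.15). CDH15 (M-cadherin, of muscle) had 0 and 12 counts, or 4.30-fold higher against that floor (lower 95% limit 2.99). All 3 reached 1 CPM in the library labelled knockdown only. CDH16, a kidney cadherin outside this group, had 11 and 0 counts, or 3.41-fold lower against that floor (lower 95% limit 2.33). The ME-180 table used here has no row for CDH1, CDH2 or CDH3, so the loss or gain of the main epithelial and mesenchymal cadherins in this pair is not analysed here.

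In SiHa the classical cadherins CDH3 and CDH2 had ratios on opposite sides of 1. CDH3 (P-cadherin, of basal epithelial cells) had 770 vector counts against 1506 under overexpression (54.2 and 110.002 CPM), a ratio of 2.03 (1.86 to 2.22). Its log2 ratio of 1.01 passed the rule by a narrow margin and was 0.96 with a pseudocount of 5 CPM. CDH2 (N-cadherin, of mesenchymal and neural cells) had 122 and 65 counts, 1.81-fold lower (1.33 to 2.48), and did not pass the rule. CDH3 and PCDH7 were the 2 genes called higher, and 0 were called lower, of 26 with at least 1 CPM. Of all 6996 SiHa genes at that level, 0.572% were called higher and 0.743% lower, or 1.32% in either direction. These 26 had a median log2 ratio of -0.02, beside -0.05 for all genes.

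**Figure D4:**
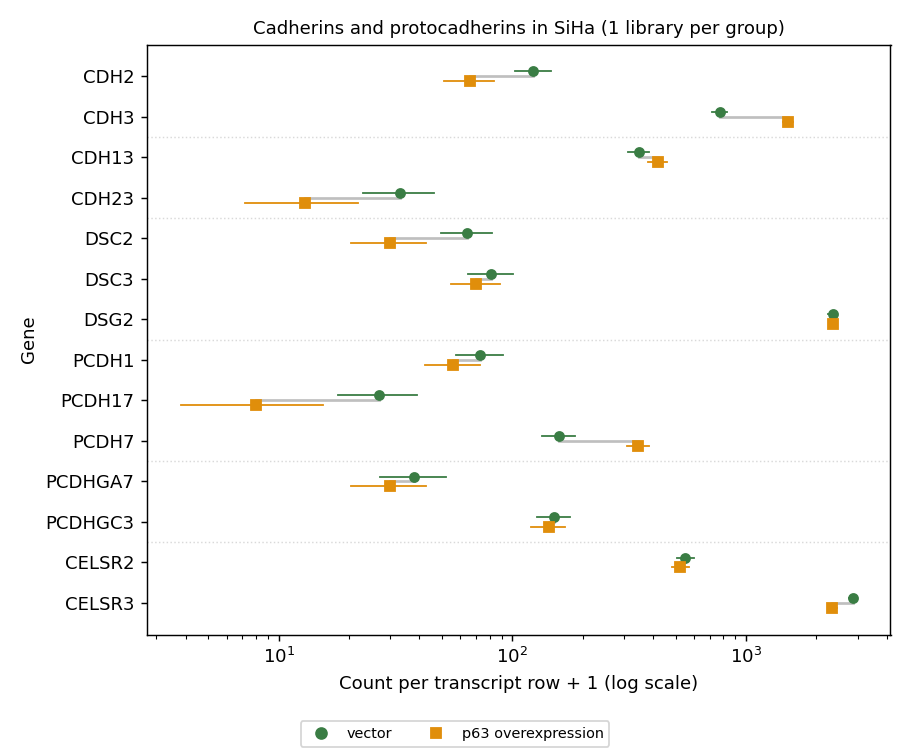
Counts in the 2 SiHa libraries, 1 per group, for the cadherins and protocadherins described by name that had at least 15 counts in either library; the x axis is the count of the gene's highest row plus 1 on a log scale, circles are the vector, squares p63 overexpression, and bars exact 95% Poisson intervals. CDH3 and PCDH7 lie further right with overexpression, CDH2, DSC2, CDH23 and PCDH17 further left, and DSG2 and CELSR2 nearly coincide.

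Desmosomal cadherins were measured mostly in SiHa. DSG2, the desmoglein of all desmosome-bearing cells, had 2344 vector counts against 2363 with overexpression, a ratio of 1.05 (0.988 to 1.11). DSC3, a basal desmocollin, had 80 and 69 counts, a ratio of 0.895 (0.639 to 1.25). DSC2, the widespread desmocollin, had 63 and 29 counts, 2.09-fold lower (1.33 to 3.37), with a log2 ratio of -0.80 on CPM + 1. DSG3, the basal desmoglein, had 4 and 11 counts and stayed under 1 CPM. In ME-180 DSG1, a desmoglein of upper epidermal layers, had 23 control counts against 0 in the library labelled knockdown. That is 7.13-fold lower against the floor of 3 counts (lower 95% limit 5.35). DSC1 and DSG4 had at most 3 counts.

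Of the giant cadherins, FAT3 had 343 ME-180 control counts against 132 in the library labelled knockdown, lower by 2.42-fold (1.97 to 2.98). In SiHa FAT3 had 5 and 1 counts, and FAT2 had 15 and 14. CELSR3, a flamingo cadherin of axon guidance, had 2866 vector counts against 2342 with overexpression, 1.18-fold lower (1.12 to 1.25). CELSR2 had 548 and 523, a ratio of 0.990 (0.877 to 1.12). Neither CELSR gene reached 2-fold. The remaining 55 of the 84 genes had at most 15 counts in either ME-180 library and at most 47 in either SiHa library. None of them was called on its highest row. Of the 40 in ME-180, 29 were clustered protocadherins, as were 29 of the 41 in SiHa.

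**Figure D5:**
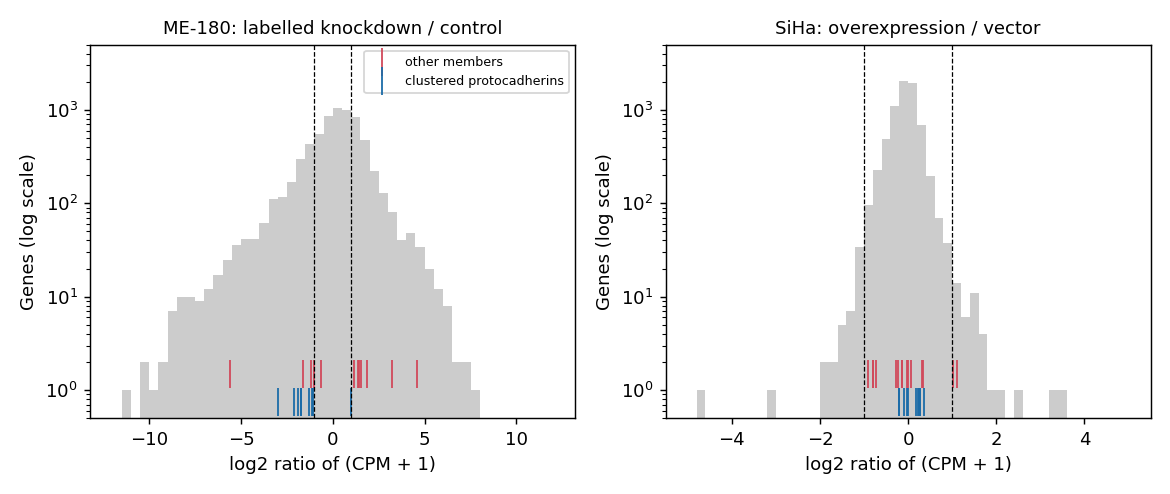
Number of genes (log scale) by log2 ratio of CPM + 1 for all genes with at least 1 CPM in either library, ME-180 on the left and SiHa on the right; ticks mark cadherins and protocadherins, blue for clustered and red for other members, and dashed lines the 2-fold rule. The 9 clustered ticks in ME-180 lie between -2.96 and 0.96, and the red ticks reach from -5.62 to 4.56, while all SiHa ticks lie between -0.91 and 1.12.

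Rows present in both tables allow the 2 lines to be set side by side. The tables hold different rows, so CPM compare only roughly between lines, and no transcript lengths were at hand, so levels of different genes were not ranked. CDH13 row NM_001257.4 stood at 48.3 CPM in control ME-180 cells, at 0 in the library labelled knockdown, at 22.03 with the SiHa vector and at 30.8 with overexpression. PCDH7 row NM_001173523.1 stood at 83.6, 52.5, 12.8 and 21.7 CPM in the same order. For both rows the order was control over labelled knockdown and overexpression over vector. PCDH17 stood at 0, 8.26, 1.83 and 0.511 CPM, with the reverse order in both lines. FAT3 stood at 31.7, 13.1, 0.352 and 0.0730 CPM and was lower in the second library of each line, though with 5 and 1 counts in SiHa. On few counts, PCDH19 row NM_020766.2 and the CDH22 row were higher in the second library of each line. CDH23 rows went the same way or opposite ways. The genes given are examples chosen without a rule, so no common order across shared rows is shown. Whether the effects differ between lines cannot be tested with 1 library per group.

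Partners of the cadherins came from 5 lists of other pathway genes. They are to be read beside the 28.2% of all ME-180 genes called higher, the 20.6% called lower and the median log2 ratio of 0.28. Genes that reached 1 CPM in 1 library only, among them PKP1, ZEB1, ZEB2 and CLDN7, had to differ. The counts per list are thus descriptions and do not support a change of a list. Of 20 cytoplasmic partners, 8 reached 1 CPM in ME-180, of which 5 were called lower and 1 higher, with a median log2 ratio of -1.31. The plakophilin PKP1 had 9585 and 1 counts, and DSP, desmoplakin, had 11675 and 1553, 6.99-fold lower (6.63 to 7.38). PKP2, another plakophilin, had 1193 and 300 counts, 3.70-fold lower (3.26 to 4.21), and LIMA1, an actin binder at junctions, 1626 and 566, 2.67-fold lower (2.43 to 2.94). In SiHa 0 of 11 were called (median 0.03), beside 1.32% of all genes, with DSP at a log2 ratio of 0.67, PKP2 at 0.58, PKP1 at 0.53 and MLLT4 (afadin, which ties nectins to actin) at -0.55.

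Of the transcription factors known to repress E-cadherin, 5 reached 1 CPM in ME-180, of which 3 were called higher and 0 lower. Of all genes, 28.2% were called higher and 20.6% lower. The median log2 ratio of the 5 was 1.61. ZEB1 and ZEB2 reached 1 CPM in the library labelled knockdown only and so had to differ, so the count supports no change of the list. ZEB2 had 1 and 223 counts, a ratio of 240 (42.6 to 9514), ZEB1 had 1 and 179, a ratio of 193 (34.1 to 7645), and TCF4 had 24 and 89, a ratio of 3.99 (2.52 to 6.55). TWIST1 had 299 and 413 counts, a ratio of 1.49 (1.28 to 1.73), short of the rule. In SiHa 1 of 7 was called, beside 1.32% of all genes. It was ZEB2, with 120 counts and 49, 2.36-fold lower (1.68 to 3.36), and the median was -0.23. KLF8, TCF3 and TWIST1 had log2 ratios of 0.27, -0.26 and -0.24 there.

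Of 12 cadherin proteases and turnover genes, 6 reached 1 CPM in ME-180, with 1 higher and 1 lower (median -0.04), beside 28.2% and 20.6% of all genes, a background that holds for each list of this paragraph. PSEN2, a gamma-secretase subunit, had 46 and 321 counts, a ratio of 7.50 (5.50 to 10.5), and ADAM10, the main sheddase of cadherins, had 4019 and 952, 3.93-fold lower (3.66 to 4.22). ADAM15, a related metalloprotease, had a log2 ratio of 0.59 and NUMB, an endocytic adaptor, of -0.61. Of 18 partners of FAT and CELSR proteins, 7 reached 1 CPM, with 2 lower and 0 higher (median -0.44). These were FZD6, a Frizzled receptor of planar polarity, with 968 and 242 counts, 3.72-fold lower (3.23 to 4.30), and YAP1, the Hippo pathway coactivator, with 1086 and 438, 2.31-fold lower (2.06 to 2.58). The planar polarity genes PRICKLE1 and PRICKLE2 had log2 ratios of 0.88 and -0.80. Of 19 other cadherin-related and junction genes, 9 reached 1 CPM, with 3 higher and 3 lower (median 0.74). CLDN7, a claudin, had 2367 and 9 counts, 245-fold lower (129 to 535), CLSTN1, a calsyntenin, 5152 and 1752, 2.73-fold lower (2.59 to 2.89), and CDHR1, a photoreceptor cadherin, 55 and 143, a ratio of 2.80 (2.04 to 3.89). PVRL3, a nectin, had a log2 ratio of 0.92. In SiHa none of these 3 lists had a called gene, of 6, 7 and 9 at 1 CPM, and their medians were -0.05, -0.08 and 0.07. The 12 genes named from these lists in SiHa had log2 ratios from -0.35 (PTK7, 242 and 180 counts) to 0.27 (WWC1, 425 and 497 counts).

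In the authors' deposited table for ME-180, 14 of 93 rows of cadherins and protocadherins had an adjusted p below 0.05 and a higher value, and 25 a lower one, beside 16.4% and 20.0% of all 15189 rows. In the authors' deposited table for SiHa, 0 of 102 rows did, and the lowest adjusted p was 0.837, beside 0.0904% higher and 0.0422% lower of all 16600 rows. These p-values compare 1 library with 1 other and hold no spread between replicates.

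Promoters of the genes called lower and higher in ME-180 had different median base compositions with overlapping ranges, given as a description without a test. The 9 promoters of genes lower in ME-180 that were in the RefSeq table had a median of 42.0% G and C bases, with a range of 36.0% to 51.3%. The 6 of genes higher had a median of 59.2% and a range of 40% to 80%, and the median of all 34796 promoters was 58.7%. Of the 9 promoters, 8 belonged to clustered protocadherins. PCDHB3, PCDHB5, PCDHB7 and PCDHB9 stood at 43.0%, 38.0%, 39.7% and 42.0%, and PCDH9 and PCDH17 at 65.7% and 52.7%.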

How the data were processed

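RNA of 4 libraries was analysed, with groups taken from the labels and 1 library per group. The authors deposited whole-number counts per RefSeq transcript, 15189 rows for ME-180 and 16600 for SiHa, with a separate row for each transcript of a gene. The authors' deposited log2 ratios and p-values were used only where named. Per the submitters' processing notes, TopHat, Cufflinks, DESeq2 and hg19 were named, without roles; how reads were counted, and on which strand, is not given in the sources used here.

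CPM used each library's sum over its own table (1000000 CPM in all). A gene's value is that of the row highest in summed CPM, and a pseudocount of 1 CPM was added before log2 ratios. Names replaced by dates (32 and 31 rows) were restored from RefSeq identifiers. Intervals are exact: Poisson for a count, conditional binomial for a ratio. A fold against 0 uses a floor of 3 counts per library. No test was run. Named members were those called or reaching 50 counts in any library, and named partners up to 4 per list and line with the largest ratios among genes reaching 50 counts. The members and lists were chosen with earlier results of these data known. Rules were tested on simulated Poisson counts with changes planted only at 5 CPM or more, so not at the low counts on which most ME-180 calls rest. Promoters came from RefSeq (GRCh38.p14), a build other than that of the peaks, which were not used here. Alternatives included scaling by trimmed means (edgeR 4.0.16). Python 3.11.15 and SciPy 1.17.1 were used.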

Additional observations from a re-analysis of the deposited data

How the results depend on the processing

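The counts of called genes depended mostly on the pseudocount and the filter on low values, because most cadherins and protocadherins in ME-180 had few reads. Of 7 genes higher and 12 lower in ME-180, 3 and 3 were called with a pseudocount of 5 CPM (median log2 ratio -0.48), and 3 and 3 with a filter at 5 CPM (median -0.66). With rows summed per gene, 9 members were called higher and 15 lower in ME-180, beside 1996 and 1471 of all 6970 genes. The calls gained were CDH18 and CDH4 (higher) and PCDH15, PCDHA1 and PCDHAC2 (lower), all below 1 CPM on the row used otherwise. The ME-180 median was -1.75 with a pseudocount of 0.1 CPM, -0.25 with no filter and -2.15 with the authors' deposited log2 ratio. Without the clustered protocadherins, an alternative chosen after seeing the data like the use of the deposited ratio, 4 genes were lower and the median reversed to 1.25, by construction of that smaller list. In SiHa, 3 genes were lower with a pseudocount of 0.1 CPM and 3 with the authors' deposited log2 ratio, against 0; 0 were higher with a pseudocount of 5 CPM and 1 with rows summed per gene, against 2. The SiHa median was 0.10 with no filter and -0.13 without the clustered protocadherins. Scaling by trimmed means lowered the median of all ME-180 genes from 0.28 to 0.004 and left 7 members higher and 13 lower. No called member turned direction under scaling by trimmed means or row sums. Another pseudocount or filter cannot turn a direction, so those settings do not bear on it. Depth limits the low genes: the floor of 3 counts that stands in for a 0 equals 0.278 CPM in the ME-180 control and 0.299 in the library labelled knockdown. No paired analysis was possible because each group has 1 library.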
